A study of Mus musculus with 13 samples.

Results

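Nonfibrillar collagens are the collagens that do not form the banded fibrils of types I, II, III, V and XI. The data described here are the rows of the count matrix for 10 of their chains, chosen by name and not by any measured value: Col6a1, Col6a2 and Col6a3 of collagen VI, Col8a1 and Col8a2 of collagen VIII, Col12a1, Col14a1 and Col16a1, and Col15a1 and Col18a1. The matrix held 23211 genes, and all 10 chains were among them. Of these, 9 passed the filter on low counts and were tested, and Col14a1 did not pass. RNA was measured in bulk in 13 libraries made from flow-sorted cells of the tissue next to tibia implants in mice, and every label calls the sorted cells LepR+. The fibrous group holds 7 libraries of fibrous tissue around implants named PMMA, and the bone group holds 6 libraries of bone around implants named Pressfit. Sorting for the leptin receptor on lineage-negative cells is common to both groups, and the labels give no further genotype, strain, age, dose or time. Whether each library is a separate animal, or pools several, is not given by the labels, so the p-values reflect the variation among these libraries and that variation may be technical.

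Collagen VI is built from an alpha 1, an alpha 2 and an alpha 3 chain, which join into beaded microfilaments around cells and bind decorin, biglycan, fibronectin and cell surface receptors. Collagen VIII is a short-chain collagen that forms hexagonal networks in vessel walls and in the basement membrane of the cornea. Collagens XII, XIV and XVI lie on the surface of other fibrils or close to it, where XII and XIV link fibrils to the matrix around them, in tendon, periosteum and ligament among other tissues. Collagens XV and XVIII are proteoglycans of basement membrane zones, and the end of the collagen XVIII chain can be released as endostatin, an inhibitor of vessel growth.

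The starts of the 3 collagen VI genes are shown because the levels of Col6a1 and Col6a2 moved together across libraries while Col6a3 differed from them between series. Whether these sequences have any part in the levels was not tested. RefSeq promoter windows (GRCm38.p6, 250 bases before to 50 after the start) were held for 8 of the 10 genes, and those of Col12a1 and Col14a1 are not used here. Col6a1 (ENSMUSG00000001119) and Col6a2 (ENSMUSG00000020241) lie on the same strand of chromosome 10, at 76708792 to 76726168 and 76595762 to 76623630. Col6a3 (ENSMUSG00000048126) lies on chromosome 1 at 90765923 to 90843971. The windows shown are chr10:76725995-76726294, chr10:76623581-76623880 and chr1:90843922-90844221, all on the minus strand, and capitals mark the matches to the motifs searched.
Col6a1: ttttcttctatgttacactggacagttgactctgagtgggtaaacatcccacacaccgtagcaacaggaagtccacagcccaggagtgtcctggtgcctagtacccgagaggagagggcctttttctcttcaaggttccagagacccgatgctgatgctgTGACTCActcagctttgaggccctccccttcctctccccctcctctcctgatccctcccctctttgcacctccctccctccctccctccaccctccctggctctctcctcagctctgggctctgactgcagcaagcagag
Col6a2: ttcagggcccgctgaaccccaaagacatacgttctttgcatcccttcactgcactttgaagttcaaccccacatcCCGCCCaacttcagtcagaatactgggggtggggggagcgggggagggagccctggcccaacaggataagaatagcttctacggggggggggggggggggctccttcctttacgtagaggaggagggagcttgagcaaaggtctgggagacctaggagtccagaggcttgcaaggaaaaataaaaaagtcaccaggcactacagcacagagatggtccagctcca
Col6a3: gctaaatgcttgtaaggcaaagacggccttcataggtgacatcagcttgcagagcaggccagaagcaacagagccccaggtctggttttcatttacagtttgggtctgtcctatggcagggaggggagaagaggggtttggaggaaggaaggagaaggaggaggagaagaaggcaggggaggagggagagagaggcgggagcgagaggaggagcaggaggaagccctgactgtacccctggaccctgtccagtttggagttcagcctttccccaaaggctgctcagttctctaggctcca

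Both strands were searched for 4 motifs, AP-1 (TGANTCA, in 7.81% of the 32851 promoter windows in the table), the CCAAT box (CCAAT, 37.4%), the GC box (GGGCGG, 35.7%) and the TATA box (TATAAA, 13.6%). The Col6a1 window held 1 match to AP-1, beginning 90 bases before the start. The Col6a2 window held 1 match to the GC box, on the other strand and 175 bases before the start, and the window of the other start listed for Col6a2, further into the gene, had 3. The Col6a3 window held no match to any of the 4. Among the other members with a window, Col8a1 and Col8a2 each had 4 GC box matches, Col16a1 had 2 and a CCAAT box, and Col15a1 had none. Col18a1 had 3 GC box matches and a CCAAT box at the first of its 2 listed starts, and none at the other.

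The libraries carried from 16162321 to 44302166 counts. Library names fell into 2 series, L002 with 9 libraries (5 fibrous, 4 bone) and XY9274 with 4 (2 fibrous, 2 bone). In L002, 5 names held the token plus (fibrous 2, 3 and 4 and bone 1 and 2), 3 held Lin (fibrous 5 and bone 3 and 4) and fibrous 1 held neither. The token reads LepR.plus in the names of fibrous 2, 3 and 4 and bone 2, and plus alone in that of bone 1. The XY9274 names hold Lepr.Pos, and the Lin names hold no LepR, although their labels too call the cells LepR+. Beyond this the labels do not explain the tokens. Against the label, Lepr, the gene of the sort marker, was below 5 normalised CPM (counts scaled to library size) in 5 libraries, namely fibrous 1, fibrous 5 and bone 3, 4 and 5, which include all 3 with Lin in the name. Normalised CPM are CPM after the TMM scaling of edgeR. The 7 erythroid marker genes in the matrix took 21.2 to 36.6% of the counts of the Lin-named libraries, against 3.03 to 8.17% of those of the plus-named libraries. Results are therefore given with and without the 5 libraries low in Lepr, and within each name series. In bulk libraries of this kind, fewer cells of a type and less RNA per cell cannot be told apart.

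Collagen VI led the set. Levels were divided by exon length in kb, to put genes of unlike length on the same scale. By this measure Col6a1 was the highest of the 10 chains in 13 of 13 libraries. The order Col6a1, Col6a2, Col6a3 also held in 13 of 13. Exon length moved with the name series, as given further below, and its part in this order was not tested. The median over libraries was 109.0 CPM per kb for Col6a1 (range 2.06 to 431), 55.1 for Col6a2 (0.635 to 200) and 6.4 for Col6a3 (0.102 to 48.4). Col8a1 came between the last 2, with a median of 10.8 CPM per kb (0.0196 to 77.1). Col16a1, Col8a2 and Col12a1 followed with medians of 5.84, 3.99 and 3.62 CPM per kb and overlapping ranges. Col15a1 and Col18a1 were low, with medians of 0.463 and 0.369 CPM per kb, and Col14a1 had a median of 0. The 3 collagen VI chains held between 64.9% and 90.6% of all counts of the 10 genes (median 78.8%). The ranges of neighbours overlapped throughout this order.

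**Figure D1:**
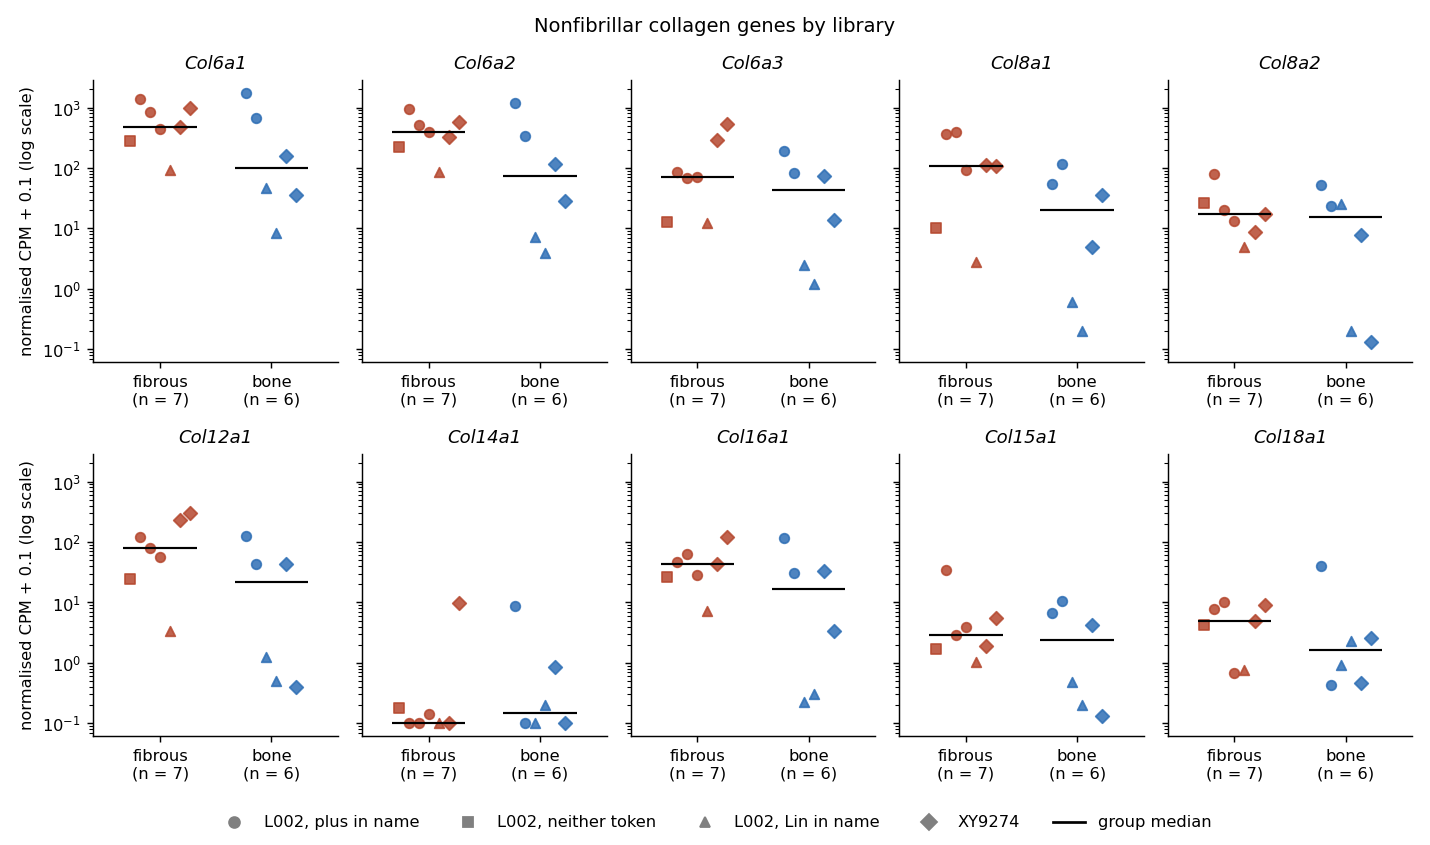
Each panel plots 1 gene in normalised CPM + 0.1 on a log axis, with fibrous libraries on the left and bone libraries on the right. Points are libraries, their shapes give the name class, and the line is the group median. The Lin-named libraries (triangles) sit at or near the bottom of both groups for the collagen VI chains, Col8a1 and Col12a1, and the fibrous and bone ranges overlap in all 10 panels.

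Comparing fibrous with bone libraries asks which genes differ between cells of the fibrous tissue and of the bone around an implant. For collagen VI the highest library exceeded the lowest by 14.8-fold among fibrous and 210-fold among bone libraries for Col6a1, by 11.3-fold among fibrous and 316-fold among bone libraries for Col6a2, and by 42.9-fold among fibrous and 173-fold among bone libraries for Col6a3. Col6a1 ran from 94.2 to 1390 CPM in fibrous libraries (median 484) and from 8.43 to 1770 CPM in bone libraries (median 102). Both the lowest and the highest library of the 13, bone 4 and bone 1, were bone libraries. Its means were 646 ± 449 CPM in fibrous (SD, n = 7) and 446 ± 692 CPM in bone (SD, n = 6), a log2 fold change of 0.79 (SE 1.07, adjusted p = 0.922 by the edgeR quasi-likelihood test). Col6a2 had the same shape, from 84.5 to 953 CPM in fibrous libraries (median 399) and from 3.81 to 1200 CPM in bone libraries (median 72.8). Its log2 fold change was 0.86 (SE 1.11, adjusted p = 0.922). Col6a3, which encodes the largest of the chains, ran from 12.2 to 525 CPM in fibrous libraries (median 69.5) and from 1.1 to 191 CPM in bone libraries (median 43.2). Its log2 fold change was 0.49 (SE 1.16, adjusted p = 0.956). For each of the 3 chains the difference was smaller than the spread between libraries, and the groups overlapped.

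The pair of collagen VIII genes did not run in parallel. Col8a1 (ENSMUSG00000068196, chromosome 16, 57624258 to 57754737, minus strand) ran from 2.71 to 394 CPM in fibrous libraries (median 106) and from 0.10 to 116 CPM in bone libraries (median 20.4). Its means of 155 ± 161 CPM in fibrous (SD, n = 7) and 35.3 ± 45.2 CPM in bone (SD, n = 6) gave the largest log2 fold change of the 9 tested members, 2.14 (SE 1.31, adjusted p = 0.873 by edgeR). It was 2.01 in L002 and 2.36 in XY9274, but 0.65 (SE 1.97) with erythroid and leukocyte scores as covariates and 3.70 (SE 2.91) by limma. Without the 5 libraries low in Lepr it was 1.73 with a smaller SE of 0.51 (unadjusted p = 0.0114 and adjusted p = 0.757 by edgeR). In those 8 libraries Col8a1 lay between 90.8 and 394 CPM in fibrous and between 35.9 and 116 CPM in bone, so that the groups overlapped only through bone 2 and the 3 lowest fibrous libraries. Col8a2 (ENSMUSG00000056174, chromosome 4, 126286793 to 126314330, plus strand) ran from 4.86 to 78.2 CPM in fibrous libraries (median 17.3) and from 0.0306 to 51.9 CPM in bone libraries (median 15.5). Its log2 fold change was 0.64 (SE 1.08, adjusted p = 0.933). Bone 6, with 35.9 CPM of Col8a1, had 1 count of Col8a2, and bone 3, with 8 counts of Col8a1, had 396 of Col8a2.

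Of the chains that lie on fibrils, Col12a1 (ENSMUSG00000032332, chromosome 9, 79598991 to 79718831, minus strand) had the larger difference. It ran from 3.26 to 299 CPM in fibrous libraries (median 81.0) and from 0.306 to 126 CPM in bone libraries (median 21.9), with means of 117 ± 110 (SD, n = 7) and 35.8 ± 48.9 CPM (SD, n = 6). The log2 fold change was 1.29 (SE 1.34, adjusted p = 0.906), made up of 0.39 in L002 and 3.54 in XY9274. Its lowest library was bone 6, at 10 counts and 0.306 CPM, although Lepr was at 102 CPM and Col1a1, a chain of collagen I, at 10100 CPM there. The other bone library of XY9274, bone 5, had 42.6 CPM of Col12a1, 2.42 CPM of Lepr and 1060 CPM of Col1a1. Col16a1 (ENSMUSG00000040690, chromosome 4, 130047840 to 130099283, plus strand) ran from 7.26 to 120 CPM in fibrous libraries (median 43.2) and from 0.129 to 118 CPM in bone libraries (median 16.8). Its log2 fold change was 0.55 (SE 1.18, adjusted p = 0.95).

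Col14a1 (ENSMUSG00000022371, chromosome 15, 55307750 to 55520803, plus strand), a chain related to that of collagen XII, was nearly absent from the counts. It had 2, 0, 0, 1, 0, 0 and 512 counts in fibrous 1 to 7, and 223, 0, 0, 1, 35 and 0 counts in bone 1 to 6. A count of 0 allows up to 3 counts, which is 0.0570 CPM in the deepest and 0.193 CPM in the shallowest of the 7 libraries at 0. Thus 1 library of each group, fibrous 7 at 9.62 CPM and bone 1 at 8.79 CPM, held most of its counts. No fold change is given for it.

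The basement membrane chains were low and each was led by 1 library. Col15a1 (ENSMUSG00000028339, chromosome 4, 47208161 to 47313167, plus strand) ran from 0.923 to 35.0 CPM in fibrous libraries (median 2.79) and from 0.0306 to 10.3 CPM in bone libraries (median 2.28). Its log2 fold change was 0.94 (SE 1.23, adjusted p = 0.922), and -0.37 without fibrous 2, the library at 35.0 CPM. Its exons share 14 bases with Gm12426 on the other strand, and whether the counting used strand is not given in the sources used here. Col18a1 (ENSMUSG00000001435, chromosome 10, 77052178 to 77166548, minus strand) ran from 0.568 to 10.2 CPM in fibrous libraries (median 4.82) and from 0.332 to 40.6 CPM in bone libraries (median 1.52). It was the only tested member with a log2 fold change below 0, at -0.32 (SE 1.29, adjusted p = 0.975). Without bone 1, the library at 40.6 CPM, the value was 2.12, and it was 1.5 by limma with all libraries.

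In all, 0 of the 9 tested members passed an adjusted p of 0.05 by edgeR, where 0% of all 13294 genes passed. The smallest adjusted p of any gene was 0.873, and 636 genes but 0 members had an unadjusted p under 0.05. DESeq2 called 169 genes, or 1.3%, and 0 members, and limma called 0 genes (1176 genes and 4 members with an unadjusted p under 0.05). Of the 9 members, 8 had a log2 fold change above 0, with a median of 0.79, where 51.9% of all genes were above 0 with a median of 0.03. Without the 5 libraries low in Lepr the members' median was 0.69 with 8 of 9 above 0, and without the Lin-named libraries it was 0.61 with 8 of 9 above 0. The median depended on single libraries and on the tool, at 1.89 with 9 of 9 above 0 without bone 1, 0.39 without bone 6, 0.52 without bone 4 and 0.47 without fibrous 2, and 2.63 with 9 of 9 above 0 by limma. It was 0.13 with 5 of 9 above 0 in L002 alone.

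The name series gave different pictures. In XY9274 the 2 fibrous libraries lay wholly above the 2 bone libraries for 8 of the 10 members (not Col14a1 or Col15a1), where 17.5% of all tested genes did so. Col6a1 was at 484 and 965 CPM in the fibrous and at 156 and 36.1 CPM in the bone libraries of that series. Col12a1 was at 232 and 299 CPM in its fibrous and at 42.6 and 0.306 CPM in its bone libraries. In L002 the groups overlapped for all 10 members, and the log2 fold changes lay near 0 for collagen VI, at -0.04 for Col6a1, 0.13 for Col6a2 and -0.51 for Col6a3, against 2.83, 2.56 and 3.15 in XY9274. The difference between the series was itself tested as an interaction. It had values of 2.93 (SE 2.14) for Col6a1, 3.71 (SE 2.20) for Col6a3 and 3.21 (SE 2.68) for Col12a1, each with an adjusted p of 1 by edgeR, and 0% of all genes passed. In XY9274 the summed chondrocyte markers were at 17500 and 44300 CPM in the fibrous libraries and at 300 and 5520 CPM in the bone libraries, and their part in these values was not tested. Over all libraries these markers ran from 1760 to 44300 CPM in fibrous and from 300 to 36400 CPM in bone libraries. The 8 neutrophil markers ran from 649 to 22700 CPM in fibrous and from 1490 to 90800 CPM in bone libraries. With erythroid and leukocyte scores as covariates, the members' median log2 fold change was 0.96, with 8 of 9 above 0 and 0 called. In that fit Col12a1, at 2.17 (SE 1.04), and not Col8a1 had the larger value of the pair.

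**Figure D2:**
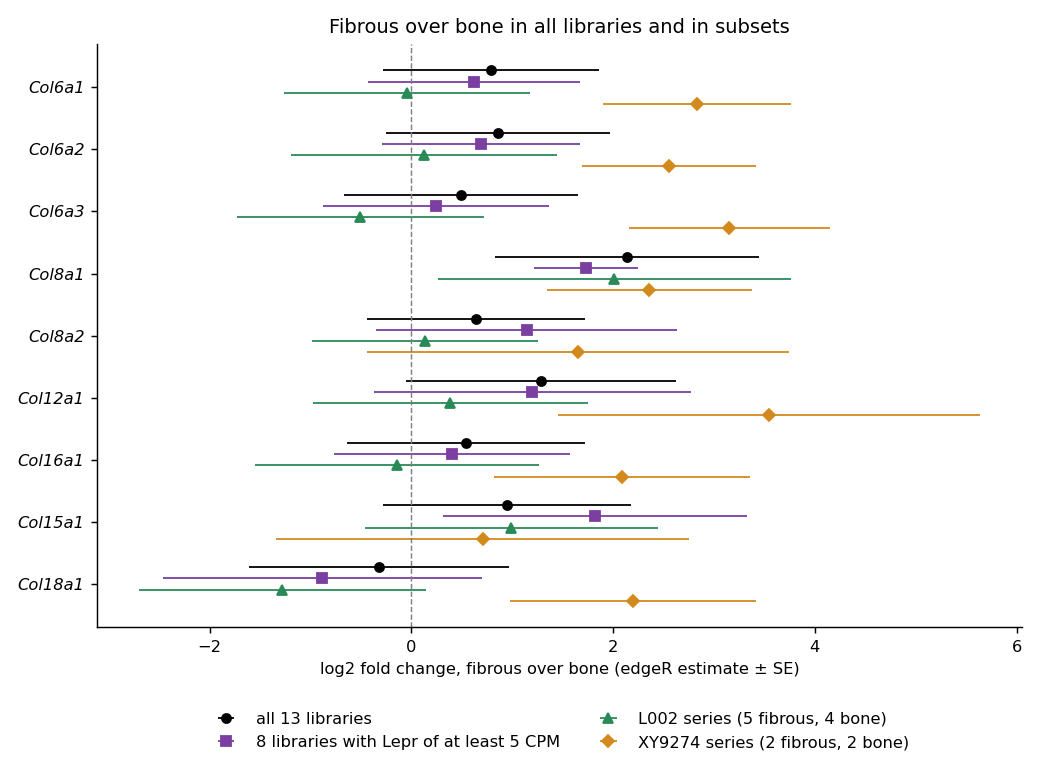
The log2 fold change of fibrous over bone (edgeR estimate ± SE) is drawn for the 9 tested members in all 13 libraries, in the 8 with Lepr of at least 5 CPM, in L002 and in XY9274. The XY9274 values lie to the right of the L002 values for 8 of the 9 members, Col15a1 being the exception, and only Col8a1 has its 4 estimates all above 1.7.

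The genes that work with these chains gave the same kind of result, with 0 called in each list by edgeR. Of the other nonfibrillar chains 8 of 22 in the matrix were tested, and 7 had a log2 fold change above 0 (median 0.82). The smallest p-values were those of the basement membrane chains Col4a2 (3.43, SE 1.61) and Col4a1 (1.95, SE 1.11) and of Col22a1 (1.01, SE 1.06), none of them past the threshold. Of 11 fibrillar chains 10 were above 0 (median 0.59), led by Col5a3 (5.88, SE 2.36), Col5a1 (0.59, SE 0.35) and Col1a1 (1.36, SE 0.90). Of 11 tested receptors 10 were above 0 (median 0.89). Among them Mrc2, the endocytic collagen receptor, had the largest value, 6.46 (SE 1.37, adjusted p = 0.873), with 33.4 ± 21 CPM in fibrous (SD, n = 7) and 2.85 ± 4.64 CPM in bone libraries (SD, n = 6). Lair1, an inhibitory collagen receptor of leukocytes, was at -1.48 (SE 0.64), and Itgb1, the integrin chain shared by the collagen-binding integrins, at 0.60 (SE 0.35). Of 13 matrix partners 11 were above 0 (median 0.75), led by Hspg2, which encodes perlecan (1.75, SE 1.07), Nid1, a nidogen (1.83, SE 1.18), and Tnc, which encodes tenascin C, a ligand of the fibril surface (1.56, SE 1.12). Of 7 processing and turnover enzymes 6 were above 0 (median 1.1), led by the proprotein convertase Furin (0.66, SE 0.32) and the procollagen proteinases Bmp1 (1.1, SE 0.59) and Adamts2 (1.74, SE 1.00).

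The chains also differed along the names within L002. Col6a1 was at 1390, 860, 447, 1770 and 660 CPM in the plus-named libraries (fibrous 2, 3 and 4, bone 1 and 2), against 94.2, 46.7 and 8.43 CPM in the Lin-named libraries (fibrous 5, bone 3 and 4). Col8a1 was at 369, 394, 90.8, 55.0 and 116 CPM in the plus-named libraries, against 2.71, 0.516 and 0.10 CPM in the Lin-named libraries. Col12a1 was at 121, 81.0, 57.3, 126 and 44.0 CPM in the plus-named libraries, against 3.26, 1.16 and 0.401 CPM in the Lin-named libraries. Every plus-named library was above every Lin-named one for these 3 genes, and 7 members in all were separated in this way (also Col6a2, Col6a3, Col15a1 and Col16a1), where 13.3% of all tested genes were. By edgeR, with tissue as a covariate, 5 of 9 members were called and all 5 were higher in plus-named libraries, where 5% of all 13450 genes were called higher.

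Of the 9 tested members, Col8a1 had the largest log2 fold change of plus-named over Lin-named libraries, 7.28 (SE 0.82, adjusted p = 0.0129 by edgeR), followed by Col12a1 at 5.75 (SE 0.75, adjusted p = 0.0148). The collagen VI chains rose by similar amounts, 4.43 for Col6a1 (SE 0.90, adjusted p = 0.0324), 4.37 for Col6a3 (SE 0.91, adjusted p = 0.0341) and 4.88 for Col6a2 (SE 1.15, adjusted p = 0.0446). Not past the threshold were Col15a1 (4.53, adjusted p = 0.0689), Col16a1 (4.98, adjusted p = 0.0754), Col18a1 (3.54, adjusted p = 0.204) and Col8a2 (2.12, adjusted p = 0.373). For Col8a2 bone 3, at 25.5 CPM, lay inside the range of the plus-named libraries. The median over the 9 members was 4.53, against 0.22 over all genes. With only 3 Lin-named libraries, the calls depended on single libraries. Without bone 3 only Col8a1 was called (adjusted p = 0.049). Without fibrous 2, fibrous 3, bone 2 or bone 4, the 2 called were each time Col8a1 and Col12a1. DESeq2 called 8 members and limma 2, Col6a3 (adjusted p = 0.0382) and Col12a1 (adjusted p = 0.0469), all of them higher in plus-named libraries. Over all genes, DESeq2 called 2171 of 12838 higher and limma 266 of 13450.

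Markers of several cell types moved along this division, those of marrow stroma among them. The 7 marrow stroma markers, Lepr among them, summed to 780 to 10500 CPM in the plus-named and 13.7 to 23.8 CPM in the Lin-named libraries. The 7 chondrocyte markers summed to 7510 to 36400 CPM in the plus-named and 362 to 1760 CPM in the Lin-named libraries. The 7 osteoblast markers summed to 3690 to 7020 CPM in the plus-named and 259 to 1010 CPM in the Lin-named libraries. The erythroid markers, with their shares given above, fell in plus-named libraries for all 7 genes. By edgeR 6 of the 7 were called lower, where 424 of all 13450 genes were called lower. Of the 6 B and plasma cell markers 2 were called lower, Cd79a and Cd79b. No tendon, adventitial, endothelial, mural, muscle, neutrophil, leukocyte or macrophage marker was called. The part of all these markers in the members' differences was not tested. For the lists that follow, 673 of all 13450 genes, or 5%, were called higher. Fibrillar chains rose as well, with 7 of 11 called higher, led by Col11a1 (4.82, SE 0.32), Col1a2 (4.04, SE 0.54) and Col1a1 (4.12, SE 0.59). Among other nonfibrillar chains 4 of 8 were called higher, with the cartilage chains Col9a2 (3.79, SE 0.59) and Col9a3 (3.30, SE 0.69) and the transmembrane chain Col13a1 (8.07, SE 1.43) first by p. Among partners 9 of 13 were called higher, led by Nid2 (5.56, SE 0.56), Tnc (6.01, SE 0.78) and Nid1 (5.77, SE 0.86). Among receptors 3 of 11 were called higher, the discoidin domain receptors Ddr2 (4.17, SE 0.83) and Ddr1 (3.95, SE 0.97) and Itgb1 (1.35, SE 0.32). Among enzymes 3 of 7 were called higher and 1 lower. Bmp1 (2.66, SE 0.37) and Mmp14, a membrane collagenase (3.57, SE 0.73), were higher, and the lysosomal protease Ctsb was lower (-1.15, SE 0.23).

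Set against Col1a1, 2 members and not 7 were separated by name. For each 1000 CPM per kb of Col1a1, Col6a1 had 28.8 to 116 CPM per kb in plus-named libraries and 31.3 to 67.0 in Lin-named libraries, so that the ranges overlapped. The same overlap held for Col6a2 (11.5 to 54.1 in plus-named, 7.06 to 30.7 in Lin-named) and Col6a3 (0.850 to 4.75 in plus-named, 1.29 to 2.47 in Lin-named). Only Col8a1 and Col12a1 stayed wholly above, where 1.4% of all tested genes did. Col8a1 had 11.9, 10.6, 5.96, 2.91 and 13.6 CPM per kb for each 1000 of Col1a1 in the plus-named libraries, against 1.16, 0.593 and 0.300 in the Lin-named libraries. Col12a1 had 1.64, 0.914, 1.58, 2.80 and 2.18 in the plus-named libraries, against 0.587, 0.561 and 0.504 in the Lin-named libraries. In the Lin-named libraries Col8a1 rested on 44, 8 and 1 counts and Col12a1 on 53, 18 and 4.

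**Figure D3:**
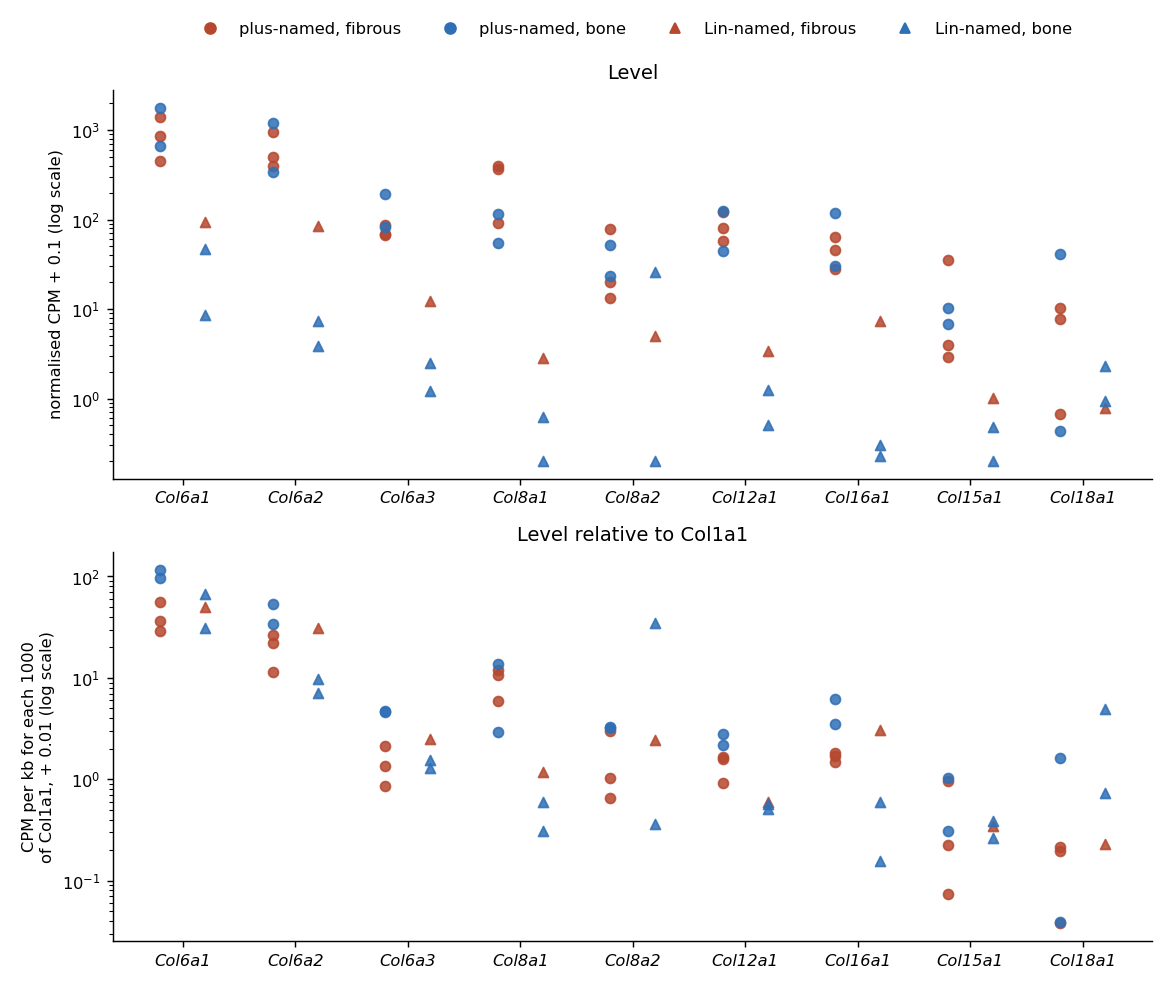
The 9 tested members are shown in the 5 plus-named libraries (circles, left of each pair) and the 3 Lin-named libraries (triangles, right), in normalised CPM + 0.1 (upper) and per 1000 CPM per kb of Col1a1, + 0.01 (lower), both on log axes. In the upper plot 7 members are separated by name, and in the lower plot only Col8a1 and Col12a1 are.

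Between the name series the ratio of the collagen VI chains differed. Col6a3 over Col6a1, both in CPM per kb, was 0.225 and 0.206 in the fibrous and 0.176 and 0.141 in the bone libraries of XY9274, and lay between 0.0173 and 0.0588 (median 0.0408) in the 9 libraries of L002. The series did not overlap, and every XY9274 library was above every L002 library in both tissues. The difference in mean log2 ratio was 2.43, or 5.38-fold, with an exact 2-sided permutation p of 0.0014, the smallest that the 715 splits can give. It was 2.74 among fibrous and 2.10 among bone libraries, 2.30 in the libraries with Lepr of at least 5 CPM, and between 2.31 and 2.56 with any 1 library left out. This ratio was chosen after its values were seen, so the p is no independent evidence. Of the 8 other tested members, only Col6a3 had a ratio to Col6a1 wholly above in XY9274, where 0.391% of all genes did. Col6a2 over Col6a1 was 0.406 to 0.536 in XY9274 and 0.105 to 0.612 in L002, with overlap.

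As levels, 0 of 9 members were called between the series by edgeR, where 2.16% of all genes were called. Col6a3 was at 289 and 525 CPM in the fibrous and 73.0 and 13.5 CPM in the bone libraries of XY9274, against 1.1 to 191 CPM in L002, a log2 fold change of 1.72 (SE 1.23, adjusted p = 0.426 by edgeR). Col6a1 had a log2 fold change of -0.88 (SE 1.19, adjusted p = 0.703). Limma called Col6a3 (2.68, SE 0.51, adjusted p = 0.00524) and Col12a1 (2.19, SE 0.62, adjusted p = 0.0261) higher in XY9274. With limma, 2946 of all 13294 genes were called, 2005 of them higher in XY9274. Exon length moved with the series over all genes. The median log2 fold change of XY9274 over L002 was -0.49 for genes with under 2 kb of exons and 1.09 for those with 8 to 10 kb, and it was 0.79 over the 345 genes above 10 kb. Col6a3 has 10.85 kb of exons and Col12a1 12.15 kb, against 4.10 kb for Col6a1 and 6.01 kb for Col6a2. Among the 345 genes above 10 kb, 2.32% had a ratio to Col6a1 wholly above in XY9274. How far length accounts for the chain ratio was not tested.

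**Figure D4:**
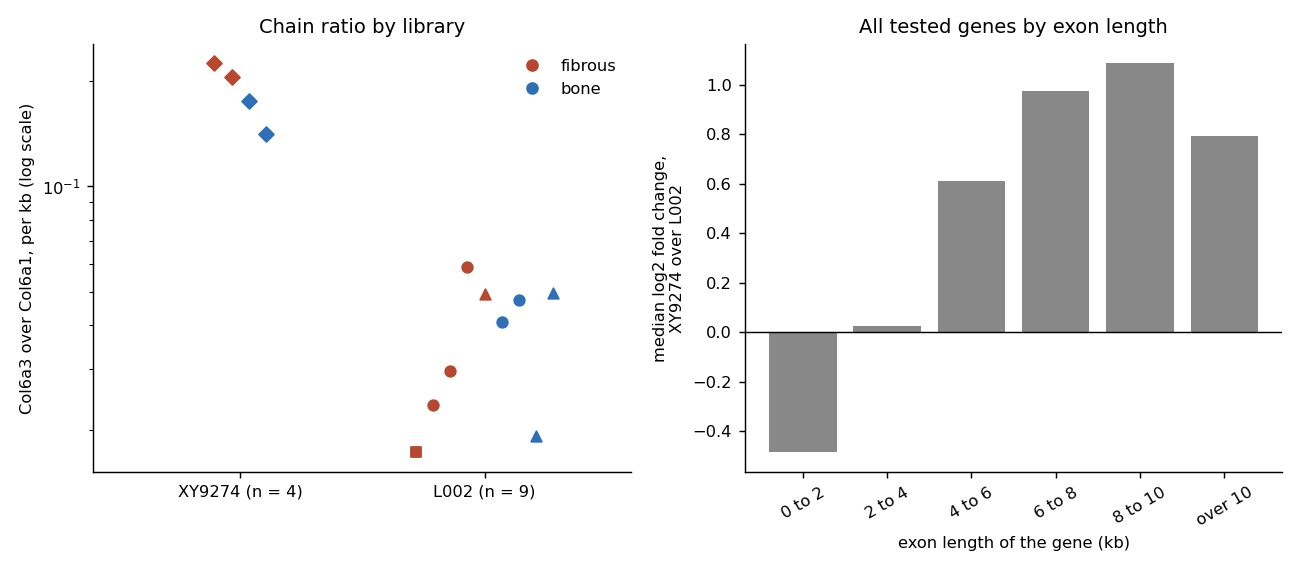
On the left, the ratio of Col6a3 to Col6a1 (CPM per kb, log axis) is plotted for each library of XY9274 and of L002, coloured by tissue. On the right, bars give the median log2 fold change of XY9274 over L002 over all tested genes in 6 classes of exon length. The 4 XY9274 ratios, 0.141 and above, lie over the 9 L002 ratios, 0.0588 and below, and the bars rise with length up to 8 to 10 kb.

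Across the 13 libraries the chains of collagen VI tracked each other unevenly. On log2(CPM + 1), Pearson's r between Col6a1 and Col6a2 was 0.972 over 13 libraries and 0.991 over the 8 with Lepr of at least 5 CPM. Between Col6a1 and Col6a3 it was 0.861 and 0.709 over the same sets, and between Col6a3 and Col12a1 0.926 and 0.909. Col8a1 and Col8a2 had 0.474 and 0.596, and Col8a1 and Col6a3 0.781 and 0.163. These values are a description, since the libraries differ in name series and in marrow stroma markers, which ran from 13.7 to 10500 CPM over the 13 and from 530 to 10500 CPM over the 8.

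Among 9541 genes with a mean of at least 5 CPM, those most like each chain in both sets were as follows. Col6a1 was most like Loxl3, a lysyl oxidase family member (r 0.985 and 0.983), and Colec12, a scavenger receptor (0.975 and 0.971). Col12a1 was most like Sox9, the transcription factor of cartilage cells (0.973 and 0.971), and Col2a1, the main cartilage collagen (0.957 and 0.952). In bone 6, where Col12a1 was lowest, Sox9 was at 3.27 CPM and Col2a1 at 256 CPM, and in fibrous 7, where it was highest, they were at 387 and 38400 CPM. Col8a1 was most like Il17rc, a subunit of interleukin 17 receptors (0.947 and 0.973), and Loxl1, another lysyl oxidase family member (0.949 and 0.907). For Col15a1 these were Myadm (0.920 and 0.907) and Anxa2 (0.890 and 0.890). For Col18a1 they were Npas2 (0.833 and 0.908) and Tm9sf1 (0.831 and 0.879), and for Col14a1 Znhit6 (0.757 and 0.824) and Cd2ap (0.754 and 0.789). These last values rest on few libraries. Col14a1 had 512 counts in fibrous 7, 223 in bone 1 and at most 35 in any other library. Col18a1 was at 40.6 CPM in bone 1 and at most 10.2 CPM in any other library.

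**Figure D5:**
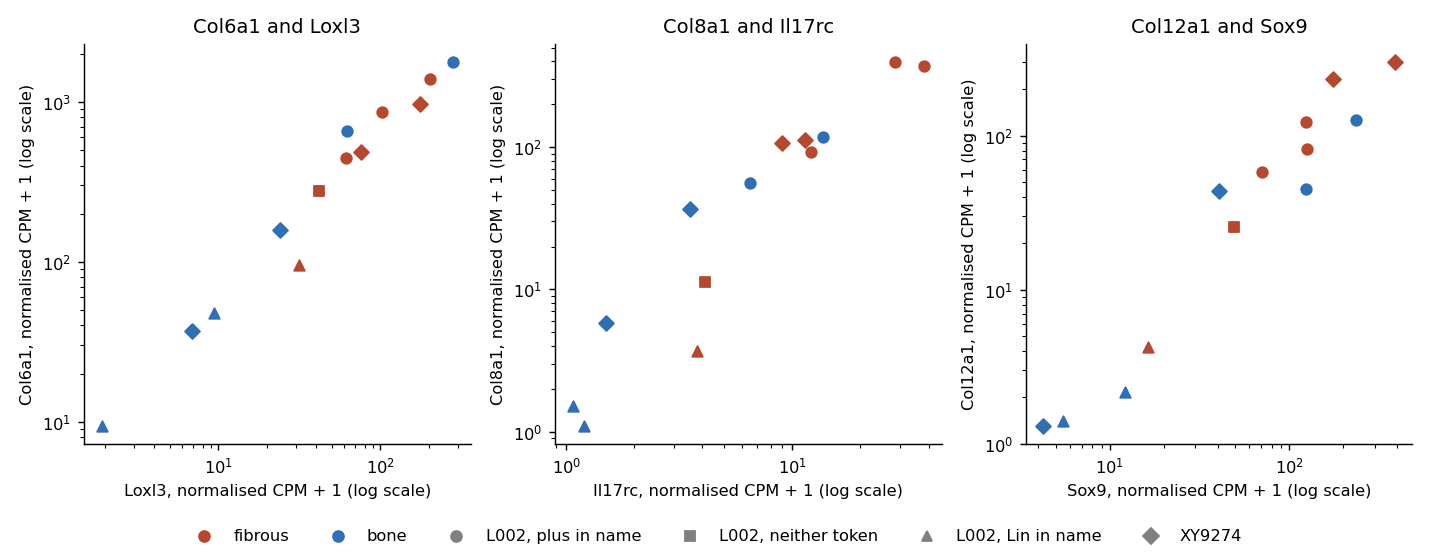
Col6a1 against Loxl3, Col8a1 against Il17rc and Col12a1 against Sox9 are plotted in 13 libraries, in normalised CPM + 1 on log axes, with colour for tissue and shape for name class. In each plot fibrous and bone libraries lie along 1 band, with the Lin-named libraries (triangles) towards its low end.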

How the data were processed

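RNA of 13 libraries was analysed. The authors deposited raw counts per gene for 23211 mouse Ensembl IDs in 1 matrix, and every ID matched a symbol. The submitters' processing notes name edgeR, mm10 and hg38 with no version or role, and the sources used here give no aligner, annotation or strand setting. Per the labels' protocols, polyA RNA was extracted with an RNeasy Plus Micro kit and made into TruSeq libraries. Totals ran from 16162321 to 44302166 counts, and limits for a count of 0 cover counting error only.

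Counts were tested with edgeR 4.0.16 (TMM, filterByExpr, robust quasi-likelihood F test) in R 4.3.3, with name series and group as terms for fibrous over bone and for XY9274 over L002, their product added for the interaction, and group as covariate for plus-named over Lin-named libraries. P-values were adjusted by Benjamini-Hochberg over all tested genes, with a threshold of 0.05, and SE is the fold change over the square root of F. Alternative tools were limma 3.58.1, through voom with sample weights, and DESeq2 1.42.0. Scripts were tested on simulated data. Exon lengths and gene coordinates are from GENCODE M21 (mm10), and promoter windows are from RefSeq (GRCm38.p6). Replicate numbers follow accession order and pair nothing.

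The members, gene lists and rule for named genes were chosen with earlier results of these data known. The rule names all members, up to 3 genes a list by p, and for 6 members the 2 genes with the highest smaller of 2 correlations. Bone 6, Lepr and cell type sums were named after their values were seen.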

Additional observations from a re-analysis of the deposited data

Results flagged for a closer look

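Single libraries stood far from the rest of their group in 5 of the 26 groups of values examined with Dixon's test, which by chance marks about 1 group in 20. Col14a1 was at 9.62 CPM in fibrous 7, while the next fibrous library had 0.0781 CPM. In bone 1 it was at 8.79 CPM, while the next bone library had 0.750 CPM. Col18a1 was also highest in bone 1, at 40.6 CPM, while the next bone library had 2.51 CPM. Col15a1 was at 35.0 CPM in fibrous 2, the library with the most Lepr (804 CPM), while the next fibrous library had 5.49 CPM. The ratio of Col6a2 to Col6a1 per kb was 0.105 in bone 3, from 112 and 725 counts, while the next bone library had 0.309.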

How the results depend on the processing

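Of 225 values recomputed for fibrous over bone, 216 kept their direction and their side of the threshold, though none was past it to begin with. DESeq2 called 169 genes. The sign changed in L002 alone for Col6a1 (-0.043), Col6a3 (-0.51) and Col16a1 (-0.14), and without fibrous 2 for Col15a1 (-0.37; range -0.37 to 1.61 with 1 library left out). Col18a1, at -0.32, was 1.5 by limma, 2.20 in XY9274 alone, 0.013 without fibrous 4, 0.002 without fibrous 5 and 2.12 without bone 1 (range -0.79 to 2.12 with 1 library left out). For plus-named over Lin-named libraries, 1097 genes and 5 members were called. DESeq2 called 3495 and 8, limma 629 and 2, and leaving out 1 library gave 138 to 992 genes and 1 to 6 members. Bone 2 shares a name token with bone 4, and fibrous 2 with fibrous 5. A replicate block on these tokens, with 1 residual degree of freedom, called 0 genes and 0 members by edgeR. The median log2 fold change of the 9 members in that fit was 5.06, with 9 above 0 and 8 with an unadjusted p under 0.05. Over the 13294 tested genes, the bone 2 minus fibrous 2 difference in log2 CPM had r = 0.088 with the bone 4 minus fibrous 5 difference. Whether the plus-named minus Lin-named differences of the 2 pairs were alike was not tested. No paired analysis was possible for fibrous against bone because their labels share only 1 number, 4, and that in different name series. For XY9274 over L002, 287 genes were called, with 1982 by DESeq2, 2946 and 2 members by limma, 155 with a 3-level name factor, 32 when the 5 libraries low in Lepr were left out, which was added after seeing the data, and 87 to 470 with 1 library left out. The sign changed by limma for Col6a1 (0.066), Col8a1 (0.021) and Col18a1 (0.99), without bone 1 for Col18a1 (0.47), and for Col16a1 with the 3-level factor (-0.45), without fibrous 7 (-0.42) and without the libraries low in Lepr (-0.31). With 1 library left out Col16a1 ran from -0.42 to 1.05 and Col18a1 from -1.39 to 0.47. For the interaction DESeq2 called 25 genes against 0 by edgeR (292 with an unadjusted p under 0.05), and Col15a1 was 0.38 without the Lin-named libraries, against -0.22. The cause of these changes was not tested. Counts near 0 in the Lin-named libraries limit the fold changes of Col8a1 and Col12a1.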
